A study of Mus musculus with 9 samples.

Results

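The genes described here are 10 members of the chondroitin sulfate matrix of the brain, namely Tnc, Tnr, Acan, Bcan, Ncan, Vcan, Hapln1, Cspg5, Ptprz1 and Cd44, measured by RNA-seq in adult mouse neural stem cells (NSCs) at the onset of differentiation. They were chosen by name and found by their Ensembl identifiers among the 48526 genes of the count table, and 9 of them were among the 18858 genes that passed the filter on low counts, all but Hapln1. The cells came from the subependymal zone (SEZ) of adult C57BL/6 mice (given as C57BL/6J in the methods) and had been expanded as neurospheres with EGF and FGF. The groups were undifferentiated cultures (0 h) and cultures taken 1 h or 6 h after differentiation was induced, with 3 libraries each, numbered as replicates 1 to 3 in the labels. Induction combined an adhesive substrate (Matrigel in the methods of the study) with a medium that kept FGF but lacked EGF, and the labels do not give the substrate of the 0 h cultures. The methods describe a day of plating in complete medium before induction for cells that were fixed early, and do not say whether the cultures used for RNA had it, so contact with the substrate and loss of EGF cannot be told apart here. RNA was taken from whole cultures, in which fewer cells of a type and less RNA per cell cannot be told apart. The labels do not say whether the replicates were separate animals or cultures. The p-values without a replicate block measure the spread between these libraries. Those with the replicate number as a block measure the spread left after differences between replicate numbers. Either spread may be technical.

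In the brain, the space between cells is filled by a loose matrix built on hyaluronan, a long sugar chain to which the lecticans (Acan, Bcan, Ncan and Vcan) bind at one end while their other end binds tenascins. Link proteins such as Hapln1 fix the lecticans to hyaluronan, Cd44 is a cell surface receptor for hyaluronan, and Ptprz1 and Cspg5 are proteoglycans that span the cell membrane. In the adult SEZ this matrix surrounds the stem cells, and tenascin C is well known as one of its abundant components.

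The members lie on 9 chromosomes of the GRCm38 build, and only Vcan (ENSMUSG00000021614, chr13:89655312-89742509, minus strand) and Hapln1 (ENSMUSG00000021613, chr13:89539796-89611652, plus strand) are neighbours. The counts cover the exons of each gene as a whole. Tnc shared 176 bases of exon with 8030451A03Rik on the opposite strand, but this gene had 9210 counts in all libraries against 1499766 of Tnc. The 443 exon bases that Tnr shared with the antisense gene Gm38039 concerned a gene with 0 counts. Promoters were taken from RefSeq (GRCm38.p6) as the 250 bases before a start, and 9 members had such a window. Those of Tnc and Cd44, which fell at 6 h, and of Ncan, which rose, are printed 5′ to 3′ on the strand of the gene, with capitals marking the motifs searched for.
Tnc, chr4:64047016-64047265, minus strand: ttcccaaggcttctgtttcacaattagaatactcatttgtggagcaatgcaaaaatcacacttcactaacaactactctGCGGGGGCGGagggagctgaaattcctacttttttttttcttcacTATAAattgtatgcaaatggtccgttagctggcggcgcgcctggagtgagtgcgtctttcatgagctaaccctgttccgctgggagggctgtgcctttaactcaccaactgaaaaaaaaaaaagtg
Cd44, chr2:102901666-102901915, minus strand: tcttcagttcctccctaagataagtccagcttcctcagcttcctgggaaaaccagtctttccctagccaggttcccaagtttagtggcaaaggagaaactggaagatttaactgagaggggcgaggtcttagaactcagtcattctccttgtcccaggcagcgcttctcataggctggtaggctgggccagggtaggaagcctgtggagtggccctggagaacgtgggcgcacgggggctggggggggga
Ncan, chr8:70120845-70121094, minus strand: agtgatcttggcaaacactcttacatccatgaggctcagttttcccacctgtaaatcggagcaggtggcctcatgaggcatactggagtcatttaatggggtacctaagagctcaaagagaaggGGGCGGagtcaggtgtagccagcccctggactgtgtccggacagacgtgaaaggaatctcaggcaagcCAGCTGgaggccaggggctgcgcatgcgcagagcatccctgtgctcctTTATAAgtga

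The search covered both strands for TGANTCA (AP-1), GCGNGGGCG (EGR), GGGCGG (GC box), TATAA (TATA box) and CAGCTG (E-box), which are present in 6.75%, 4.7%, 32.7%, 22.8% and 13.0% of the 32851 windows of all genes. Tnc has a pair of windows, for different starts, and the printed one held an EGR match that overlaps a GC box match, and a TATAA match 126 bases before its start. In the other window, these matches lie farther from the start and a further TATAA match lies 27 bases before it. The window of Ncan held a GC box, an E-box and a pair of overlapping TATAA matches on opposite strands close to the start, whereas that of Cd44 held none of the motifs. No window of the 9 members held the AP-1 letters. Such a match is a description of the letters and not a binding site.

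The libraries held between 65871454 and 105592597 counts. Levels are given as CPM, the counts of a gene relative to the scaled total of its library, and as CPM per kilobase of exon (RPKM) where genes are compared with each other. At this depth the least abundant tested member, Acan, rested on 5 to 55 counts per library, and each of the other tested members on far more. No library was left out.

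By 6 h after the induction of differentiation, transcripts of Ncan and Cspg5 had risen to 1.58 and 1.53 times their level at 0 h and those of Tnc and Cd44 had fallen to 0.640 and 0.817 times, whereas no member passed the test at 1 h. Thus 2 of the 9 tested members were called higher and 2 lower at 6 h against 0 h, at an adjusted p under 0.05 in edgeR's quasi-likelihood test with the replicate number as a block. Over all tested genes, 17.4% were called higher and 17.5% lower in that comparison, so the members were called at a rate near that of all genes. The median log2 fold change of the 9 members was 0.07, beside 0.00 for all genes tested. None of these genes passed the threshold in edgeR without the block, and in DESeq2 without it only Ncan did. Over all genes, edgeR without the block called 1.46% higher and 0.955% lower, and DESeq2 without it called 807 and 675 of 17958. With the block, all 4 were called in each of the 9 fits that leave out a library. At the fewest, these fits called 2203 higher and 2147 lower of all 19253 tested genes. At the most, they called 3996 higher and 4055 lower of 19318.

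**Figure D1:**
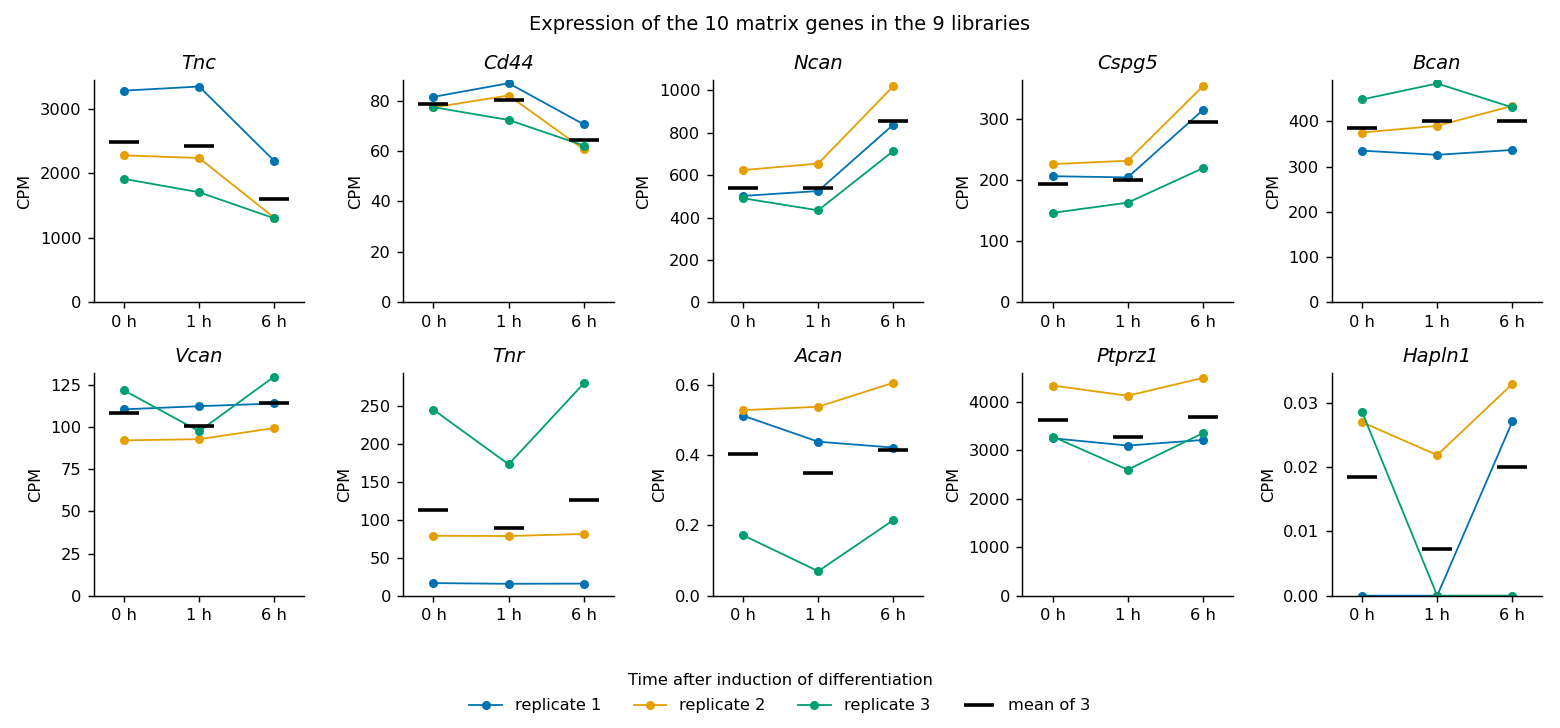
Level of the 10 genes in CPM (vertical axes, linear from 0) by time after induction (horizontal axes), with a coloured line for each replicate number and a black bar for the mean of 3 libraries. The lines of Tnc and Cd44 fall between 1 h and 6 h in each replicate, those of Ncan and Cspg5 rise, and the 3 lines of Tnr lie far apart at every time.

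Tnc encodes tenascin C, a large glycoprotein that binds lecticans, Ptprz1 and integrins. Its levels in replicates 1, 2 and 3 were 3279.9, 2277 and 1913 CPM at 0 h, 3344, 2236 and 1705 CPM at 1 h, and 2190.4, 1309 and 1301 CPM at 6 h. Replicate 1 was highest at every time, and its value at 6 h lay above that of replicate 3 at 0 h, so the groups overlapped although each replicate fell. The mean was 2489.8 ± 708 CPM (SD, n = 3) at 0 h and 1600.03 ± 511 CPM at 6 h. The log2 fold change at 6 h against 0 h was -0.64 ± 0.07 (SE, edgeR adjusted p = 1.21e-05 with the block and 0.345 without it), with a decrease in 3 of 3 replicates.

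Tnr, or tenascin R, is a tenascin of the nervous system made mainly by oligodendrocyte lineage cells and some neurons. It was measured at 16.6, 79.0 and 245 CPM in replicates 1 to 3 at 0 h, at 15.6, 78.7 and 173 CPM at 1 h and at 15.9, 81.4 and 280.1 CPM at 6 h. The replicates kept the same order at each time and differed far more than the times did, as the highest library of a time was 11.1 to 17.6 times the lowest. On the log2 scale the means of the replicate numbers spanned 3.83, whereas those of the times spanned 0.26. The sum of the 6 markers of oligodendrocyte progenitors at 0 h was highest in replicate 1 (2289, 1691 and 1838 CPM in replicates 1 to 3). This sum rests mostly on Olig1 (1509, 1082 and 1093 CPM) and Olig2 (701, 545 and 653 CPM), which did not have the order of Tnr. Pdgfra (7.84, 8.87 and 16.5 CPM) had it at 0 h. Cspg4 (70.0, 54.3 and 73.5 CPM) and Sox10 (0.0691, 0.0270 and 0.172 CPM) were highest in replicate 3 but lowest in replicate 2. Gpr17 (1.02, 0.460 and 1.02 CPM) was also lowest in replicate 2. Their part in the spread of Tnr was not tested. The log2 fold change of Tnr at 6 h against 0 h was 0.07 ± 0.10 (SE, edgeR adjusted p = 0.622).

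Among the lecticans, Ncan rose at 6 h and the other three did not pass the test. Ncan encodes neurocan, a lectican found mainly in the nervous system. Its levels in replicates 1 to 3 were 502, 624 and 491 CPM at 0 h, 525, 654 and 434 CPM at 1 h, and 838, 1019.9 and 714 CPM at 6 h. All 3 libraries at 6 h lay above all 6 earlier libraries, so the groups did not overlap. The log2 fold change at 6 h against 0 h was 0.66 ± 0.06 (SE, 1.58-fold, edgeR adjusted p = 2.52e-06 with the block and 0.104 without it), and the increase was seen in 3 of 3 replicates. DESeq2 called Ncan also without the block, with an adjusted p of 0.0213.

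Bcan, or brevican, another lectican of the nervous system, was measured at 335, 375 and 448 CPM in replicates 1 to 3 at 0 h and at 337, 434 and 431 CPM at 6 h. These groups overlapped over almost their whole range, and the log2 fold change was 0.05 ± 0.06 (SE, edgeR adjusted p = 0.530). Vcan, or versican, which is found in many tissues, was at 111, 92.2 and 122 CPM at 0 h and at 114, 99.5 and 130.2 CPM at 6 h. The replicates of Vcan each had a slightly higher value at 6 h, but the log2 fold change of 0.08 ± 0.07 (SE, edgeR adjusted p = 0.384) did not pass the test. Acan, or aggrecan, the lectican best known from perineuronal nets, was near the limit of detection, with 0.512, 0.527 and 0.172 CPM at 0 h and 0.421, 0.605 and 0.215 CPM at 6 h. Its log2 fold change of 0.07 had a standard error of 0.29 (edgeR adjusted p = 0.877). Changes of about the size of this standard error or smaller were therefore not detectable at this depth.

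Hapln1, which encodes the link protein best known from cartilage and perineuronal nets, was not detected above a few counts. It had 11 counts in all 9 libraries, at most 3 in any of them, and 0 in 4 libraries. A count of 0 allows a level of up to 3 counts, which corresponded to 0.0280 to 0.0469 CPM in these libraries and covers counting error only. Another link protein gene, Hapln4, was detected at 4.99 to 12.5 CPM in the 9 libraries. None of the 3 tested genes among the other link proteins and tenascins was called at 6 h against 0 h. Of all tested genes, 17.4% were called higher and 17.5% lower. The median log2 fold change of the 3 genes was -0.12, and Tnn among them averaged only 0.147 CPM.

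The transmembrane proteoglycans differed from each other. Cspg5, also known as neuroglycan C, carries an EGF-like domain outside the cell. Its levels in replicates 1 to 3 were 206, 226 and 146 CPM at 0 h, 204, 231 and 163 CPM at 1 h, and 314, 353 and 219 CPM at 6 h. Replicate 3 was lowest at each time and at 6 h stayed just below replicate 2 at 0 h, so the groups overlapped, but each replicate rose. The log2 fold change at 6 h against 0 h was 0.61 ± 0.05 (SE, 1.53-fold, edgeR adjusted p = 2.05e-06 with the block and 0.191 without it). The 3 single replicates gave log2 ratios of 0.61, 0.64 and 0.58.

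Ptprz1 encodes a receptor tyrosine phosphatase that binds tenascins, contactins and pleiotrophin, and whose secreted form is phosphacan. It was at 3252, 4341 and 3288 CPM in replicates 1 to 3 at 0 h, at 3101, 4130.02 and 2604 CPM at 1 h and at 3217, 4499 and 3356 CPM at 6 h. Replicate 2 was highest throughout, and the values at 0 h and 6 h were close to each other in every replicate. The log2 fold change at 6 h against 0 h was 0.02 ± 0.06 (SE, edgeR adjusted p = 0.821).

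Cd44 was measured at 81.5, 77.3 and 77.4 CPM in replicates 1 to 3 at 0 h, at 86.9, 82.1 and 72.3 CPM at 1 h, and at 70.6, 60.7 and 62.2 CPM at 6 h. All 3 libraries at 6 h lay below all 6 earlier ones, so the groups did not overlap. Its log2 fold change at 6 h against 0 h was -0.29 ± 0.06 (SE, edgeR adjusted p = 0.00123 with the block and 0.138 without it), with a decrease in 3 of 3 replicates. Among the called members this was the smallest change.

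**Figure D2:**
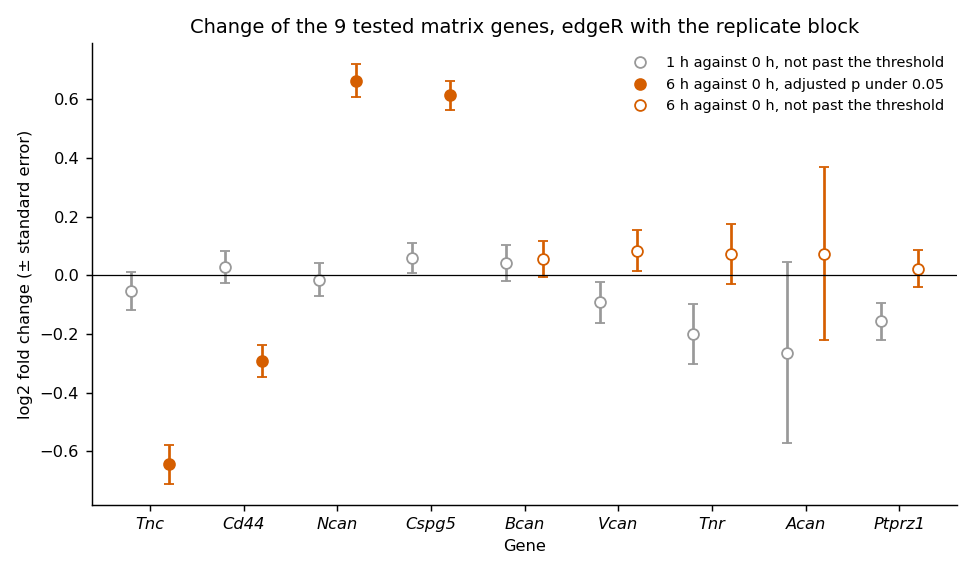
Log2 fold change with its standard error (vertical axis) of the 9 tested genes (horizontal axis), at 1 h against 0 h in grey and at 6 h against 0 h in orange, from edgeR with the replicate block. Filled points passed an adjusted p of 0.05 and mark Tnc (-0.64), Cd44 (-0.29), Ncan (0.66) and Cspg5 (0.61) at 6 h, whereas no point at 1 h is filled.

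At 1 h against 0 h, 0 of the 9 tested members were called in edgeR with the block, beside 1.36% of all tested genes called higher and 2.14% called lower. The log2 fold changes of the members at 1 h lay between -0.26 for Acan and 0.06 for Cspg5. Ptprz1 (-0.16 ± 0.06, SE, edgeR adjusted p = 0.203) and Tnr (-0.20 ± 0.10, edgeR adjusted p = 0.322) had lower values at 1 h in 3 of 3 replicates without passing the test. In both genes most of the difference came from replicate 3, with log2 ratios of -0.34 for Ptprz1 and -0.50 for Tnr. Without the block, 0 members were called at 1 h in edgeR, beside 8 higher and 0 lower of all 18858 tested genes.

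At 6 h against 1 h, a comparison that shares its 6 h libraries with the former, 3 of the 9 members were called higher and 2 lower with the block, beside 18.0% and 17.5% of all tested genes. The log2 fold changes were 0.68 ± 0.06 (SE) for Ncan, 0.55 ± 0.05 for Cspg5, -0.59 ± 0.07 for Tnc and -0.32 ± 0.06 for Cd44. The edgeR adjusted p-values of these genes were 2.55e-06, 5.43e-06, 2.65e-05 and 0.000687 with the block, and 0.106, 0.230, 0.376 and 0.113 without it. Ptprz1 was the additional call, at 0.18 ± 0.06 (SE, edgeR adjusted p = 0.0404 with the block and 0.752 without it). This call was lost in 5 of the 9 fits that leave out a library, namely those without replicate 1 or 2 at 0 h, replicate 3 at 1 h, or replicate 2 or 3 at 6 h, in which the adjusted p rose to at most 0.187. Tnr (0.27 ± 0.10, edgeR adjusted p = 0.0536) and Vcan (0.18 ± 0.07, edgeR adjusted p = 0.0645) missed the threshold.

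Per kilobase of exon, Tnc and Ptprz1 were the most abundant members at 0 h, with 320.4 ± 91.1 and 255 ± 43.5 RPKM (SD, n = 3). Bcan (95.1 ± 14.1 RPKM) and Ncan (74.9 ± 10.3 RPKM) followed, and then Cspg5 (19.1 ± 4.12 RPKM), Cd44 (11.6 ± 0.354 RPKM), Tnr (8.83 ± 9.18 RPKM), Vcan (7.49 ± 1.04 RPKM) and Acan (0.0540 ± 0.0269 RPKM). Tnc and Ptprz1, Bcan and Ncan, and Tnr and each of its neighbours Cd44 and Vcan did not differ beyond their SD. Within each library at 0 h, however, Bcan stood above Ncan, with ratios of Ncan to Bcan of 0.846, 0.939 and 0.618 in replicates 1 to 3. At 6 h the order had Ptprz1 (259 ± 49.4 RPKM) before Tnc (206 ± 65.8 RPKM), and Ncan (119 ± 21.4 RPKM) before Bcan (98.6 ± 13.6 RPKM), again within their SD. With the longest transcript as the length of a gene, Ptprz1 at 449.6 RPKM stood above Tnc at 350.4 RPKM already at 0 h, and Bcan at 128 RPKM stood above Ncan at 119 RPKM at 6 h. The order of Tnc and Ptprz1 at 0 h and that of Ncan and Bcan at 6 h therefore rest on the length used.

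**Figure D3:**
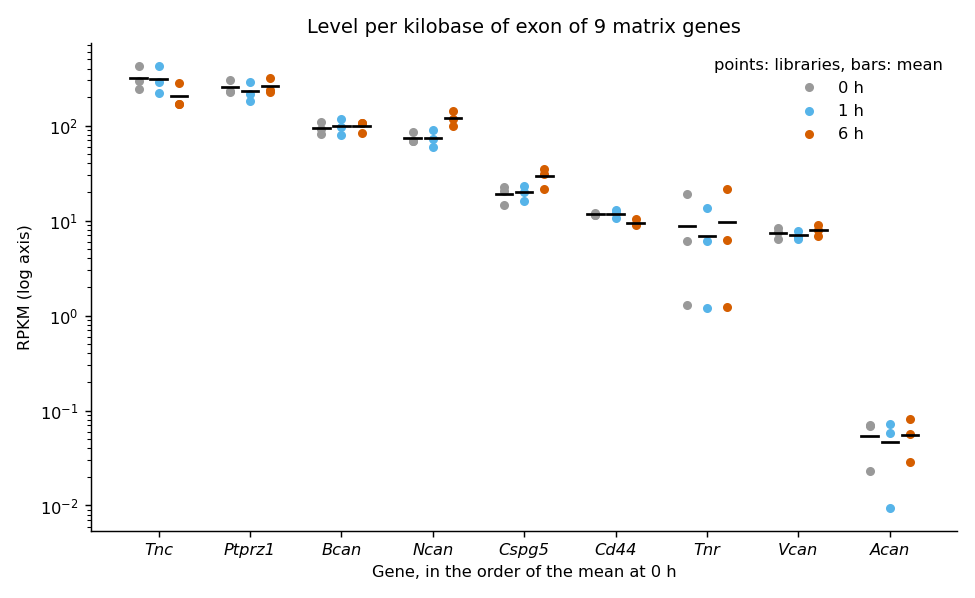
RPKM on a log axis (vertical) of 9 genes (horizontal, in the order of their mean at 0 h), with a point for each library and a bar for the mean of each time. Tnc and Ptprz1 lie at the top, Acan lies far below the other genes, and the points of Tnr spread over more than a factor of 10 at each time, the largest spread of the 9 genes.

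The balance within the matrix genes shifted in each replicate. The ratio of Tnc to Ncan per kilobase was 6.05, 3.38 and 3.61 in replicates 1 to 3 at 0 h, 5.90, 3.16 and 3.64 at 1 h, and 2.42, 1.19 and 1.69 at 6 h. All 3 ratios at 6 h lay below the 6 earlier ones. Among the 4 lecticans, Ncan made up 43.6, 46.7 and 36.5% of the summed RPKM at 0 h and 56.2, 55.5 and 46.3% at 6 h, and these groups overlapped. The ratios follow from the levels of genes described above and were not tested again.

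Genes that build, modify, cut or bind this matrix were taken from 7 lists. At 1 h, only Has2 and Adamts1 of their 80 tested genes were called, both higher, beside 1.36% of all tested genes called higher and 2.14% lower. Has2, a synthase that makes hyaluronan at the cell membrane, was low, with 0.442, 0.527 and 2.21 CPM in replicates 1 to 3 at 0 h, 1.83, 1.52 and 8.47 CPM at 1 h and 1.26, 0.605 and 3.46 CPM at 6 h. It rose in each replicate at 1 h, although the groups overlapped, with a log2 fold change of 1.85 ± 0.19 (SE, edgeR adjusted p = 1.16e-04 with the block and 1.0 without it). Adamts1, a secreted protease that cuts lecticans, was at 41.0, 53.1 and 63.2 CPM at 0 h, at 175, 168 and 173 CPM at 1 h and at 50.6, 76.9 and 73.3 CPM at 6 h. Its 1 h libraries stood apart from all others, and the log2 fold change of 1.74 ± 0.11 (SE) passed the test with the block (edgeR adjusted p = 1.54e-06) and without it (edgeR adjusted p = 0.0412).

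At 6 h against 0 h, 5 of the 9 tested genes of hyaluronan synthesis and turnover were called higher and 0 lower, beside 17.4% and 17.5% of all tested genes, with a median log2 fold change of 0.32. These were Cemip (1.40 ± 0.07, SE, edgeR adjusted p = 5.69e-08), which takes part in the breakdown of hyaluronan, Has2 (0.77 ± 0.20), Has3 (0.34 ± 0.12), the hyaluronidase Hyal1 (0.32 ± 0.10) and Ugdh, which makes a sugar precursor. Genes of opposite function, in synthesis and in breakdown, were thus above their 0 h level at 6 h, but they did not all move together. From 1 h to 6 h, Has2 fell (log2 fold change -1.08 ± 0.17, SE) while Cemip rose (1.54 ± 0.08). Cemip was at 8.85, 27.2 and 15.6 CPM in replicates 1 to 3 at 0 h and at 24.9, 62.3 and 45.1 CPM at 6 h. Of a list of other proteoglycans, 3 of 4 tested genes were called higher, beside the same 17.4% of all genes. They were Cspg4 (1.41 ± 0.06, SE, edgeR adjusted p = 1.06e-08), Agrn (0.57 ± 0.06) and Spock2 (0.29 ± 0.08). Cspg4, a membrane proteoglycan typical of oligodendrocyte progenitors and pericytes, rose from 70.0, 54.3 and 73.5 CPM to 183, 151 and 188 CPM with no overlap.

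The enzymes of the chondroitin sulfate chains moved in both directions. Of 12 tested genes that make the linker and the chain, 4 were called higher and 3 lower at 6 h against 0 h, beside 17.4% and 17.5% of all tested genes, with a median log2 fold change of 0.10. B4galt7, which adds a sugar of the linker, rose by 0.48 ± 0.08 and the chondroitin synthase gene Chsy3 by 0.43 ± 0.13 (SE, log2 scale), whereas Csgalnact1, whose enzyme starts the chain, had a log2 fold change of -0.42 ± 0.09 and Chsy1 one of -0.37 ± 0.05. Of 11 tested genes of sulfation and epimerisation, 5 were called higher and 1 lower, beside the same shares of all genes, with a median of 0.18. The sulfotransferase genes Chst12 (0.32 ± 0.07), Chst3 (0.24 ± 0.08) and Chst14 (0.22 ± 0.08) were among the higher ones, and the epimerase gene Dsel (-0.43 ± 0.07) was the lower one. All of these calls were made with the block, and 0 of them passed in edgeR without it. Of all tested genes, 1.46% were called higher and 0.955% lower without it.

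Of 20 tested genes of proteoglycan degradation, 5 were called higher and 4 lower at 6 h against 0 h, near the 17.4% and 17.5% of all tested genes, with a median log2 fold change of 0.08. The proteases Adamts8 (-1.07 ± 0.09, SE) and Adamts20 (-1.0002 ± 0.18) were lower, as was the protease inhibitor Timp1 (-0.61 ± 0.12), whereas Timp4 (0.44 ± 0.07) and Adamts1 (0.35 ± 0.11) were higher. Of 21 tested receptors and ligands, 6 were called higher and 5 lower, beside the same shares of all genes, with a median of 0.00. Rtn4rl1, a receptor of chondroitin sulfate, had the largest change, from 3.93, 4.10 and 1.92 CPM at 0 h to 22.8, 16.04 and 7.80 CPM at 6 h (log2 fold change 2.19 ± 0.11, SE, edgeR adjusted p = 3.47e-08 with the block and 0.0600 without it). Lrp1 (0.51 ± 0.08) and the contactin gene Cntn1 (0.39 ± 0.06) were also higher, and the integrin gene Itga8, whose product binds tenascin C, was lower (-0.82 ± 0.10). Without the block, of the genes in the 7 lists only Cspg4 (edgeR adjusted p = 0.00672) and Agrn (edgeR adjusted p = 0.0358) were called at 6 h against 0 h. Of all tested genes, 1.46% were called higher and 0.955% lower in that setting.

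**Figure D4:**
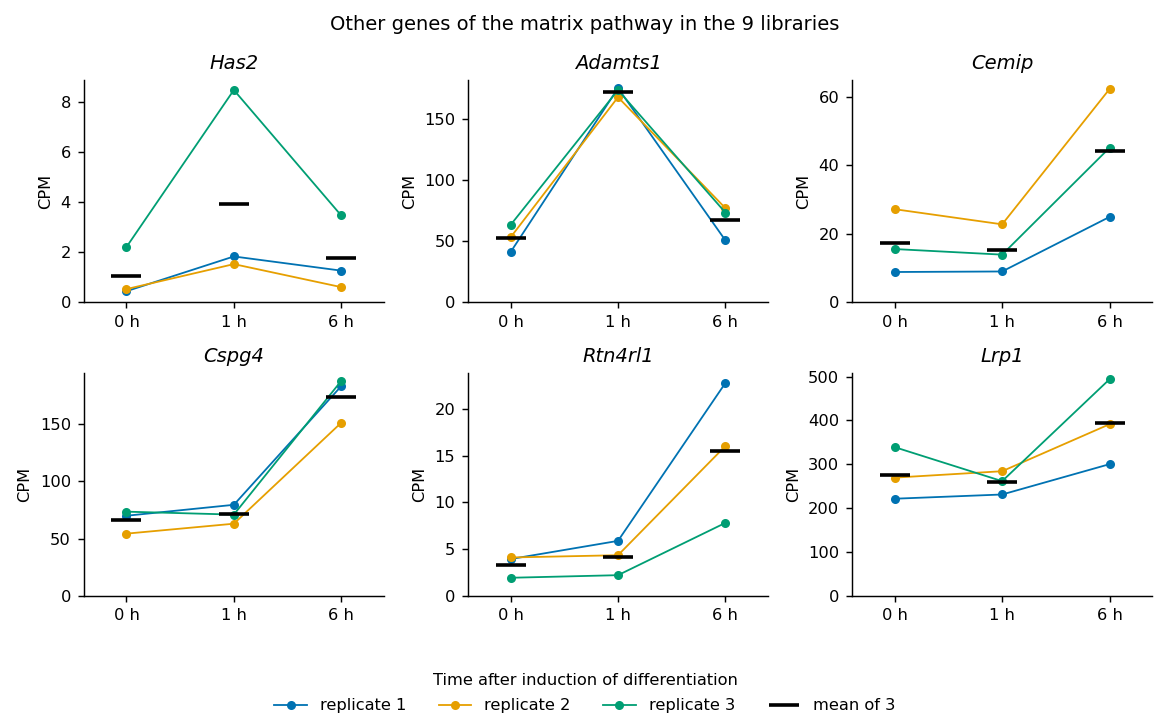
Level in CPM (vertical axes, linear from 0) of 6 other genes of the matrix pathway by time after induction (horizontal axes), with a coloured line for each replicate number and a black bar for the mean of 3 libraries. Has2 and Adamts1 peak at 1 h in each replicate, whereas Cemip, Cspg4, Rtn4rl1 and Lrp1 are highest at 6 h.

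Markers of cell types moved as well, and the calls given for them at 6 h against 0 h were made with the block, beside 17.4% of all tested genes called higher and 17.5% lower. The oligodendrocyte progenitor list summed to 1691 to 2289 CPM at 0 h and 2164 to 2512 CPM at 6 h, and 5 of its 6 genes (Pdgfra, Cspg4, Olig2, Sox10 and Gpr17) were called higher, of which Sox10 had a mean of only 0.210 CPM at 6 h. Without the block, 1 of these genes (Cspg4) was called, beside 1.46% of all tested genes called higher. The sum of this list rests mostly on Olig1, which was not called, and Olig2. The neural stem or progenitor list summed to 6009 to 7509 CPM at 0 h and 4734 to 6490 CPM at 6 h, with all 8 markers detected. Its sum rests mostly on Nes, Vim and Fabp7, of which Nes and Vim were called lower, whereas Sox1, Hes5 and Sox9 were called higher, and the median log2 fold change of the list was 0.09. Astrocyte markers summed to 329 to 429 CPM at 0 h and 366 to 443 CPM at 6 h, with Slc1a2 called higher and Gfap lower among 6.

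Markers of neuroblasts or neurons summed to 191 to 241 CPM at 0 h and 194 to 263 CPM at 6 h, mostly from Sox11, which was not called (log2 fold change 0.01 ± 0.05, SE). Of these 7 genes, Tubb3 (1.06 ± 0.09), Rbfox3 (1.23 ± 0.16) and Snap25 (0.50 ± 0.15) were called higher and Dlx1 (-0.46 ± 0.15) lower. Endothelial markers summed to 4.97 to 19.96 CPM at 0 h and 3.23 to 10.8 CPM at 6 h, with Flt1, Kdr and Tek called lower and the defining marker Cldn5 under 0.1 CPM. Pericyte or fibroblast markers summed to 2.26 to 5.03 CPM at 0 h and 2.45 to 8.49 CPM at 6 h. Among them Pdgfrb was called higher, from 0.0691, 0.0406 and 0.387 CPM to 0.760, 0.627 and 4.97 CPM, and Rgs5 lower. Ependymal markers summed to 46.3 to 87.2 CPM at 0 h and 37.8 to 59.8 CPM at 6 h, mostly from Foxj1, which was called lower together with Ccdc153. The microglial list did not exceed 0.548 CPM in any library, and its markers Cx3cr1, C1qa, Tmem119 and Ptprc had means under 0.1 CPM. The part of these markers in the changes of Ncan, Cspg5, Tnc and Cd44 was not tested.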

How the data were processed

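RNA-seq libraries of NSC cultures before and after the induction of differentiation were analysed, with 3 replicates for each of 0, 1 and 6 h. The authors deposited raw counts of reads per Ensembl gene, which were not normalised. Per the methods and the submitters' processing notes, reads were checked with FastQC, aligned to mm10 (GRCm38) and counted with STAR 2.5.3a, and tested with DESeq2 1.22.1. The strand setting of the counting is not given in the sources used here, although the libraries were stranded. GENCODE M21 (GRCm38) held 48058 of the 48526 identifiers and gave positions and exon lengths. Between pairs of libraries (36 in all) the chi-square per degree of freedom was at least 12.5, so no library was entered again under another name.

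For the fits R 4.3.3 was used, with the packages edgeR 4.0.16, DESeq2 1.42.0 and limma 3.58.1. Python 3.11.15 (numpy 2.4.6, pandas 2.3.3 and matplotlib 3.10.9) served for summaries and plots. The filter filterByExpr used a minimum total of 15 counts and a minimum of 10, and TMM gave the scaling factors. The 9 libraries were fitted together with glmQLFit and glmQLFTest, and the replicate number entered as a block. The p-values are two-sided and were adjusted by Benjamini-Hochberg over all tested genes. Libraries of the same number, which share a letter in the titles, deviated together from the time means (correlations of 0.733 to 0.800 in 9 pairs, against -0.462 to -0.314 in the 18 pairs of other numbers and times). As the deviations are taken from the mean of each time, the negative values follow from the positive ones and are not separate evidence. What libraries of the same number share is not stated. The biological coefficient of variation was 0.0627 with the block and 0.277 without it.

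The scripts were tested on simulated data. The members and lists were chosen with earlier results of these data known. All 10 members are named. Of each list, up to 4 genes called at 6 h against 0 h and averaging at least 1 CPM are named by size of change, with any gene called at 1 h. Ugdh, the remaining called gene of its list, and the cell type markers were named after their values were seen. Cemip2 stands for Tmem2, an older symbol of the same gene. Alternatives were other tests, scalings, filters, thresholds and sets of libraries, offsets for GC and length trends, and another gene length. The limit given for a count of 0 covers counting error only. Each SE comes from the edgeR fit and includes the spread between libraries in that fit, and each SD is the spread of 3 libraries.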

Additional observations from a re-analysis of the deposited data

How the results depend on the processing

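Most calls of the members, like most calls over all tested genes, were lost without the replicate block. In edgeR without the replicate block, 0 members were called higher and 0 lower at 6 h against 0 h and at 6 h against 1 h. Of all tested genes, this setting called 1.46% higher and 0.955% lower at 6 h against 0 h. At 6 h against 1 h it called 1.48% higher and 0.663% lower. In DESeq2 without the block, 1 member (Ncan) was called higher in each of these comparisons, and 0 were called lower at 6 h against 0 h and 1 (Cd44) at 6 h against 1 h. Over all genes, that setting called 807 higher and 675 lower of 17958 at 6 h against 0 h. At 6 h against 1 h it called 829 higher and 596 lower of 17350. When the log2 fold change also had to reach 1 in size, 0 members were called in either direction. Of all 18858 tested genes, 348 were then called higher and 256 lower at 6 h against 0 h. At 6 h against 1 h these numbers were 287 and 308. At 6 h against 1 h, 5 members were called higher with library totals, without a filter on low counts, and with trends in GC content and length removed (Tnr, Ncan, Vcan, Cspg5 and Ptprz1). Over all genes, these settings called 3956 of 18858, 3725 of 31382 and 3207 of 18858 higher. At 1 h against 0 h, 2 members (Tnr and Ptprz1) were called lower without a filter, beside 788 of all 31382 genes. The cause of these differences was not tested. Leaving out a library or a replicate number left 2 members higher and 2 lower at 6 h against 0 h, 0 and 0 at 1 h against 0 h, and 2 to 5 higher and 2 lower at 6 h against 1 h. The 5 calls came without replicate 1 at 1 h or without replicate 1 as a whole. In these fits 2699 of 19275 and 2450 of 19225 genes were called higher. The fits leaving out libraries called 1907 of 18755 to 3996 of 19318 genes higher at 6 h against 0 h. They called 1749 of 18755 to 4055 of 19318 lower. At 1 h against 0 h they called 116 of 18755 to 325 of 19243 higher and 68 of 18755 to 561 of 19243 lower. At 6 h against 1 h they called 2284 of 18755 to 3294 of 19318 higher and 1848 of 18755 to 3363 of 19318 lower. Over single genes, the other settings kept the side of the threshold in 258 cases, lost a call in 27 and gained one in 9. A gene called in either fit changed direction in 0 cases. The 258 cases include any change of direction in genes called in neither fit. The stricter p and the threshold on the log2 fold change reuse the main fit, so their directions could not differ. Depth limits Acan, with 5 to 55 counts per library, and Hapln1, which was not tested.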

Other observations

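The genes whose log2 CPM was most like that of each called member over the 9 libraries, among genes with a mean of at least 1 CPM, were Add3 and Runx1 for Tnc (Pearson r of 0.988 and 0.986), Frem2 and Scd2 for Ncan (0.992 and 0.986), Tubb3 and Mtmr3 for Cspg5 (0.993 and 0.983), and B3galt1 and Eml1 for Cd44 (0.984 and 0.977). Among the members, Ncan and Cspg5 had an r of 0.928 and Tnc and Cd44 one of 0.901, whereas Tnr and Bcan, which were not called, had one of 0.916. These points share replicate numbers and times, and the values are given as a description.

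The members also differed in how far replicate numbers and times set their levels apart. On the log2 scale, the means of the replicate numbers spanned 0.83 for Tnc, 0.48 for Ncan, 0.61 for Cspg5 and 0.17 for Cd44, and those of the times 0.65, 0.68, 0.61 and 0.32 for the same genes. Bcan spanned 0.45 between replicate numbers and 0.05 between times, and Acan 1.82 and 0.48. Itga8 and Timp1, which were lower at 6 h, also lay far apart between replicates. Itga8 was at 4.05, 5.35 and 16.5 CPM and Timp1 at 7.98, 3.43 and 0.659 CPM in replicates 1 to 3 at 0 h.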
